A study of Mus musculus with 2 samples.

Results

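The genes Mir103-1, Mir103-2 and Mir107 encode the family of miR-103 and miR-107, and each lies in an intron of a pantothenate kinase gene. They were taken by symbol from the GENCODE M21 annotation of the identifiers in the count tables, and all 3 were found among 2202 microRNA genes. Levels come from microRNA-seq (sequencing of a library of short RNAs, here with a stated size range below 30) of adrenal gland tissue from C57BL/6J wild-type mice. The series has 1 group of 2 libraries, labelled biological replicates 1 and 2, with separate tissue samples under a common donor identifier. No treatment is named, age and developmental stage are given as unknown, and sex is called female in one label and not collected in another. The labels do not say whether the tissue came from separate animals or was pooled, so the p-values given here compare 2 libraries, whose difference may be technical.

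A microRNA is cut from a hairpin precursor, whose 5p and 3p arms can each yield a short mature product. The mature strand guides silencing complexes to messenger RNAs that pair with its seed, the bases from position 2 to 8. Pantothenate kinase performs the first and rate-limiting step in making coenzyme A, the carrier of acyl groups in fatty acid, cholesterol and energy metabolism. These microRNAs are known as regulators of insulin sensitivity, with the caveolin-1 messenger RNA among their targets, and their 3p arm is the abundant product in most tissues. The adrenal cortex makes steroid hormones from cholesterol, and the medulla makes catecholamines.

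The mature products are shown first because how far they differ sets which reads can be counted at which gene. They are given 5′ to 3′ from RefSeq (GRCm38.p6), with the seed in capitals. The first 2 lines are the 3p products, and the other 3 are the 5p products.
miR-103-3p of Mir103-1 and Mir103-2: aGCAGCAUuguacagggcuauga
miR-107-3p of Mir107: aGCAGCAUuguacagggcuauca
miR-103-1-5p of Mir103-1: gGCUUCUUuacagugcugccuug
miR-103-2-5p of Mir103-2: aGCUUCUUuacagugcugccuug
miR-107-5p of Mir107: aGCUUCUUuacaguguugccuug

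All 5 products have 23 bases. The 3p products share the seed GCAGCAU, and the 5p products share the seed GCUUCUU. Among the mature mouse microRNAs of the same RefSeq table, no product of another gene carried either seed. The 3p product of Mir103-1 is identical to that of Mir103-2 over all 23 bases, and miR-103-3p differs from miR-107-3p by the substitution G22C (positions counted from 1 at the 5′ end). The 5p product of Mir103-1 differs from that of Mir103-2 by G1A, and the latter differs from miR-107-5p by C16U. Mir107 is thus set apart from both Mir103 genes by base 22 of its 3p product and base 16 of its 5p product. Of the mature products of the Mir103 genes, the 5p product alone differs between them.

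The hairpins surround these products with bases that differ more, and they are shown to mark where a longer or shifted read could separate the genes. Capitals mark both mature products of each hairpin.
Mir103-1: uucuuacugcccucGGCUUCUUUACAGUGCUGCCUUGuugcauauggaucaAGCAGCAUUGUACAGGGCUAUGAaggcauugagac
Mir103-2: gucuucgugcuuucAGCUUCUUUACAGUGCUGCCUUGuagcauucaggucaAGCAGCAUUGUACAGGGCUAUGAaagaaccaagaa
Mir107: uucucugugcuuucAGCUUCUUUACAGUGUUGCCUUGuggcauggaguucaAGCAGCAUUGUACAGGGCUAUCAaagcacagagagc

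The RefSeq hairpins equal the GENCODE M21 transcripts base for base, at 86, 86 and 87 bases. Aligned end to end, Mir103-1 and Mir103-2 are 80.2% identical, Mir103-1 and Mir107 80.5%, and Mir103-2 and Mir107 83.9%. The products start at bases 15 (5p) and 52 (3p) in all 3 hairpins.

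The 3 loci have the same place in their host genes. Mir103-1 lies at chr11:35782396-35782481 (mm10, plus strand) in Pank3, Mir103-2 at chr2:131288052-131288137 (plus strand) in Pank2, and Mir107 at chr19:34820687-34820773 (minus strand) in Pank1. Each is transcribed from the strand of its host, and no annotated gene other than the host overlaps it. In the protein-coding transcripts with 7 exons, which each host has, all 3 hairpins sit in intron 5. Transcripts with other exon counts number it differently, and some of Pank2 bound it by other exons. That intron is flanked in all 3 genes by an exon of 124 bases and an exon of 126 bases. The introns themselves differ in length, with 1740 bases in Pank3, 5801 in Pank2 and 7282 in Pank1. The hairpin starts 688 bases after the upstream exon in Pank3, 454 bases after it in Pank2 and 326 bases after it in Pank1. In 1 transcript of Pank2, annotated for nonsense-mediated decay, a further exon begins 444 bases past the hairpin. Another Pank2 transcript annotated for that decay has a downstream exon of 59 bases. In a protein-coding Pank2 transcript with 4 exons the intron has 19135 bases. There the hairpin starts 13788 bases after an exon of 353 bases. Pank4, the other Pank gene of the annotation, holds 0 microRNA genes.

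**Figure D1:**
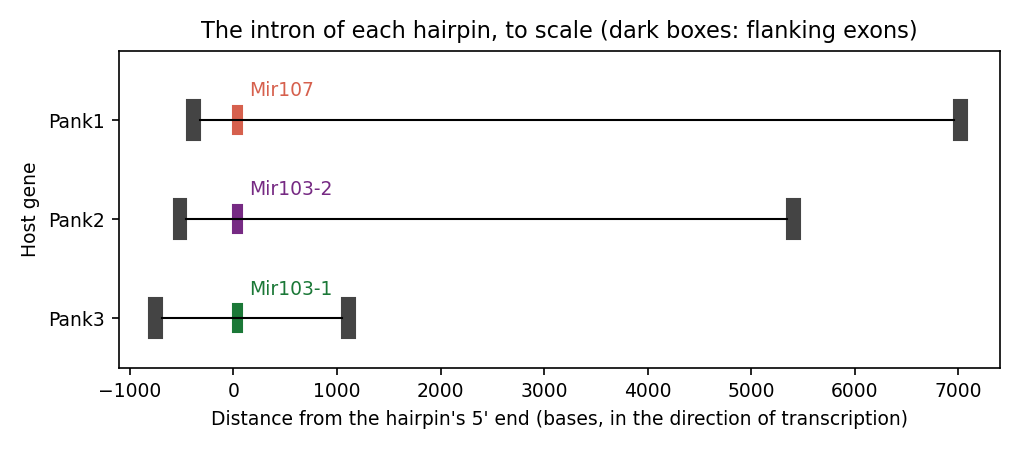
The intron of each hairpin in a protein-coding transcript with 7 exons, drawn to scale. The x axis is the distance from the hairpin's 5′ end in bases, and the y axis is the host gene. Dark boxes are the flanking exons of 124 and 126 bases, and coloured boxes are the hairpins, which lie 326 to 688 bases after the upstream exon in introns of 1740 to 7282 bases.

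Whether a read of a given length occurs in 1 or several hairpins was then counted for exact matches on both strands among the 2202 hairpins. A read that starts at the first base of the 3p product and has 18 to 21 bases occurs in all 3 hairpins. With 22 bases or more the product of Mir107 occurs in its own hairpin alone. A 3p read of Mir103-1 or Mir103-2 occurs in both of their hairpins at 22, 23 and 24 bases, and in 1 hairpin first at 25. The 5p products occur in 1 hairpin each at every length from 18 to 25. Without their first base, miR-103-1-5p and miR-103-2-5p become the same 22 bases, while miR-107-5p stays distinct. None of the mature products occurs in another GENCODE transcript. A genome was not searched, and how the aligner treated mismatches is not given in the sources used here.

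**Figure D2:**
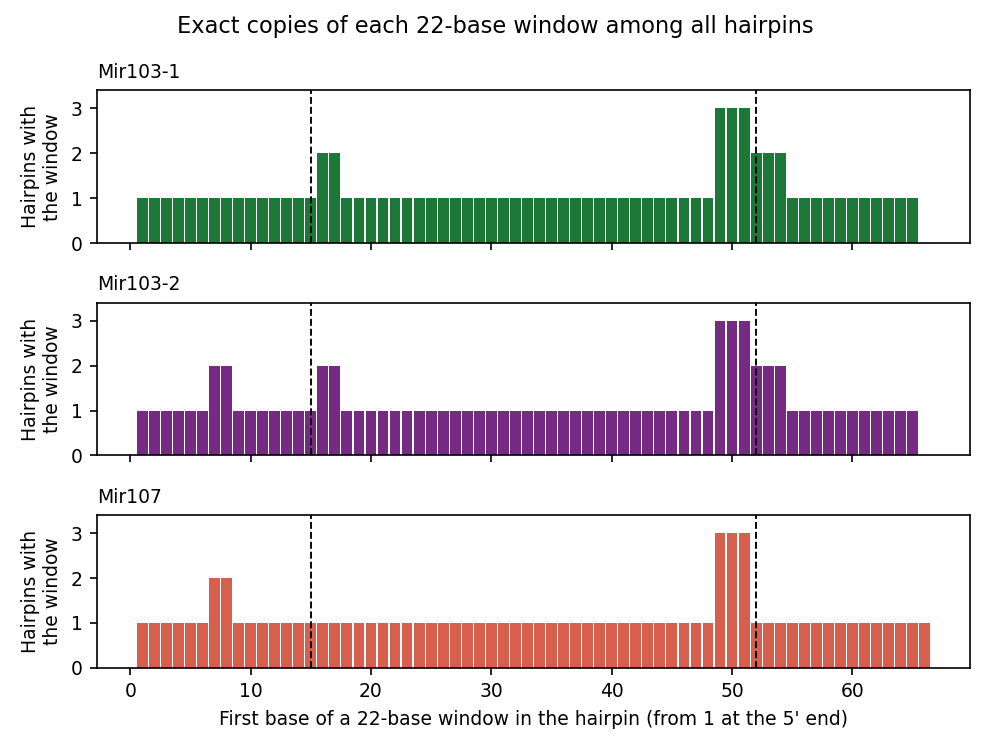
For each hairpin, the number of the 2202 hairpins that hold a given 22-base window (y axis), by the first base of that window (x axis, from 1 at the 5′ end). Dashed lines mark the first bases of the mature products (15 and 52), and the window at the start of the 3p product is found in 2 hairpins for Mir103-1 and Mir103-2 but in 1 for Mir107.

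Reads with several alignments are held apart from the genes in the deposited tables, so the levels that follow are of reads placed at 1 locus. The replicate 1 table sums to 18743064 reads, with 9137907 assigned in sense to microRNA genes and 6721333 (35.9%) aligned to several loci. The replicate 2 table sums to 14457994 reads, with 6570375 assigned and 5210526 (36.0%) aligned to several loci. The tables do not say which loci those reads match. For each read counted at a member there were 720 such reads in replicate 1 and 857 in replicate 2. At these depths a count of 0 allows up to 0.328 and 0.457 CPM (counts per 1000000 counts on the strand of a gene). As a check on tissue, the neuroendocrine microRNAs Mir375 and Mir7b stood at 49445 and 3109 CPM, below the endothelial microRNA Mir126a at 58001 CPM. The hepatocyte microRNA Mir122 stood at 99.8 CPM, with 128 CPM in replicate 1 and 71.5 CPM in replicate 2. The 3 kidney microRNAs listed, Mir192, Mir194-2 and Mir204, stood at 31.7 to 47.9 CPM. The fibroblast and smooth muscle microRNAs Mir143, Mir145a and Mir214 stood at 1081 to 14230 CPM. Leukocyte Mir150, Mir142 and Mir223 stood at 187 to 431 CPM, and erythroid Mir451a, Mir144 and Mir486 at 19.1 to 177 CPM. Those listed for striated muscle stood at 0 to 0.338 CPM, with reads of several alignments left out. No microRNA defines the adrenal gland alone.

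Mir107 held nearly all counts of the family. It had 9165 reads in replicate 1 and 5927 in replicate 2, which is 1003 and 902 CPM, or 953 ± 71.3 CPM (SD, n = 2). Mir103-2 had 141 and 123 reads, which is 15.4 and 18.7 CPM, or 17.1 ± 2.33 CPM. Mir103-1 had 30 and 28 reads, which is 3.28 and 4.26 CPM, or 3.77 ± 0.692 CPM. The order Mir107, Mir103-2, Mir103-1 was the same in both libraries, and the ranges of the genes did not overlap. No member had a read on the opposite strand in either library.

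Counting error was small beside these gaps. The exact Poisson 95% intervals, which cover counting error only, ran in replicate 1 from 983 to 1024 CPM for Mir107, from 13.0 to 18.2 CPM for Mir103-2 and from 2.22 to 4.69 CPM for Mir103-1. In replicate 2 they ran from 879 to 925 CPM, from 15.6 to 22.3 CPM and from 2.83 to 6.16 CPM in the same order. Mir107 had 65.0 times the reads of Mir103-2 in replicate 1 (exact 95% interval 55.0 to 77.3) and 48.2 times in replicate 2 (40.3 to 58.1). Mir103-2 had 4.70 times the reads of Mir103-1 in replicate 1 (3.15 to 7.22) and 4.39 times in replicate 2 (2.90 to 6.88). These are ratios of reads placed at 1 locus. How far they reflect the output of the genes, and how far the reads set aside for several alignments, cannot be told apart in these tables.

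As shares of the family's 9336 and 6078 counts, Mir107 held 98.2% in replicate 1 (exact Clopper-Pearson 95% interval 97.9 to 98.4) and 97.5% in replicate 2 (97.1 to 97.9). Mir103-2 held 1.51% (1.27 to 1.78) and 2.02% (1.68 to 2.41). Mir103-1 held 0.321% (0.217 to 0.458) and 0.461% (0.306 to 0.665). Mir107 thus held a smaller share in replicate 2 and Mir103-2 a larger one. Fisher's exact two-sided test of each gene against the other members gave p = 0.00668 for Mir107, p = 0.0186 for Mir103-2 and p = 0.179 for Mir103-1. These 3 p-values are unadjusted, are not independent of each other and know counting error between 2 libraries only. The family summed to 973 ± 68.3 CPM (SD, n = 2), or 0.0973% of the counts. By reads placed at 1 locus, the 3 genes held 0.0498% of all reads in the table in replicate 1 and 0.0420% in replicate 2. All reads here include those with several alignments, of which none is counted at the genes.

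Among the 2202 genes, ordered by mean CPM, Mir107 stood at rank 76 (73 in replicate 1 and 84 in replicate 2). Mir103-2 stood at rank 266 and Mir103-1 at rank 344, and 403 genes reached 10 counts in each library. The genes nearest to Mir107 in log2(CPM + 1) over the 2 libraries were Mir872 (1020 ± 128 CPM), Mir487b (929 ± 59.0 CPM) and Mir27a (924 ± 97.9 CPM). The range of each overlapped that of Mir107. Nearest to Mir103-2 were Mir7688, Mir3544 and Mir33, at 16.8 to 17.5 CPM. Nearest to Mir103-1 were Mir7052, Mir141 and Mir7069, at 3.54 to 3.83 CPM. This likeness rests on 2 libraries and is a nearness in level alone.

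Of the 2202 genes, 741 lie in an intron of a protein-coding gene on the strand of that gene, as the members do. A count of 10 or more in each library was found for 159 of them (21.5%), with a median of 29.5 CPM. Mir107 stood far above that median and Mir103-1 and Mir103-2 below it. Counting Mir107 itself, 25 of the 741 genes stood at or above its level. A pair of genes with hosts in lipid and energy metabolism is given for comparison. Mir33, in the sterol regulator Srebf2, had 130 and 127 reads (16.8 ± 3.61 CPM), close to the level of Mir103-2 by reads at 1 locus. Mir378a, in the coactivator gene Ppargc1b, had 12957 and 9693 reads (1447 ± 40.5 CPM), above Mir107 in both libraries.

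The pair of Mir103 loci was set beside other loci that are numbered 1 and 2 under the same name. The tables hold 52 such pairs. Sequences of both loci were found for 40, and in 39 of these the loci share at least 1 mature product. In 12 of the 39 both loci had no count, 18 summed to more than the Mir103 pair and 20 to less. Mir103-1 and Mir103-2 summed to 20.8 CPM, where the median pair stood at 18.5 CPM. The nearest pairs were Mir218 (21.7 CPM), Mir219a (18.5 CPM) and Mir365 (16.6 CPM). Their loci were unequal too, with 58 and 49 reads for Mir218-1 against 154 and 84 for Mir218-2, and 160 and 126 reads for Mir219a-1 against 1 in each library for Mir219a-2. Mir365-1 had 7 and 15 reads and Mir365-2 had 167 and 78. Over the 25 pairs with counts at both loci, the ratio of the higher to the lower locus had a median of 4.53. The Mir103 pair is 1 of these 25 and is itself the middle pair. In all of them the counts leave out reads of the shared product that have several alignments. The ratios thus compare only the reads placed at 1 locus.

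**Figure D3:**
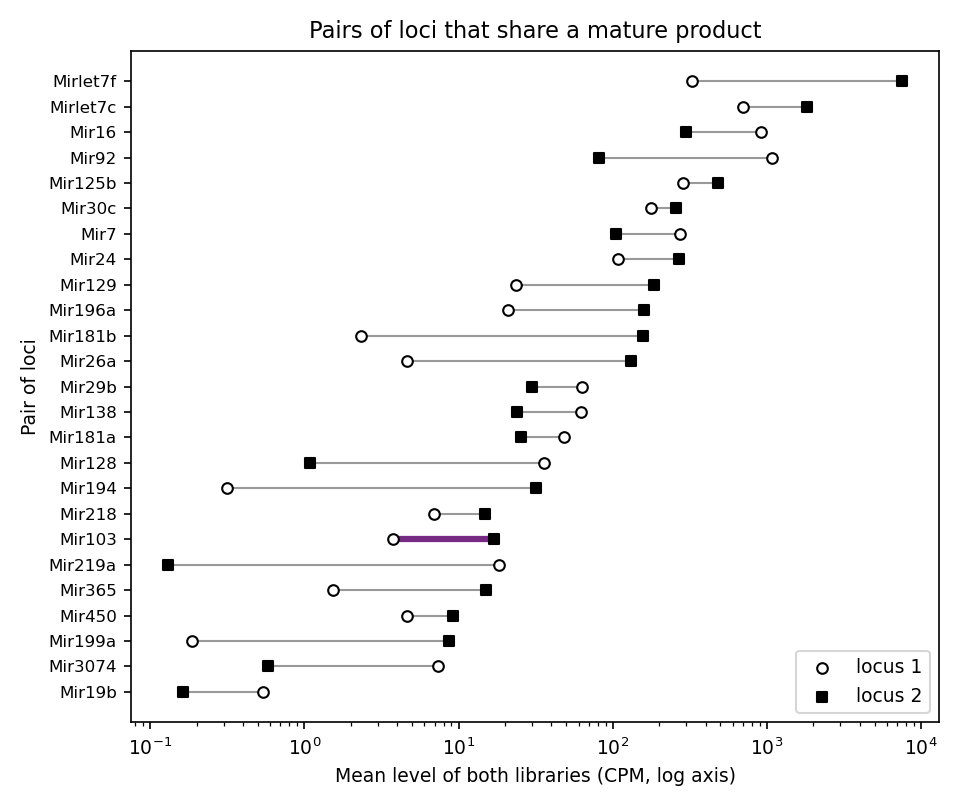
Mean level of both libraries (CPM, log axis) for each locus of the 25 pairs that share a mature product and have counts at both loci. Open circles are locus 1, filled squares locus 2, and the purple line joins Mir103-1 (3.77 CPM) and Mir103-2 (17.1 CPM), a gap of 4.53 times, in the middle of the order of gaps.

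The products miR-103-3p and miR-107-3p belong to a wider seed group together with miR-15 and its relatives, known for targets in cell division and metabolism. Most of its members share a run of bases at the 5′ end that begins 1 base later in the relatives of miR-15, and 3 are shown with that run in capitals.
miR-107-3p: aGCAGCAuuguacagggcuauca
miR-15a-5p: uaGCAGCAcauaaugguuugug
miR-322-5p: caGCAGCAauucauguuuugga

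The run GCAGCA lies within the first 9 bases of 14 of 1679 mature products in the RefSeq table (0.834%). It starts at base 2 in miR-103-3p and miR-107-3p and at base 3 in the products of Mir15a, Mir15b, Mir16-1, Mir16-2, Mir195a, Mir195b, Mir322 and Mir497, which thus have the seed AGCAGCA in place of GCAGCAU. The product of Mir503 has the seed AGCAGCG and lacks the full run. The other products with the run, miR-761, miR-1906, miR-6342, miR-6353 and miR-6419, are outside the group, whose 12 genes were listed by name from general knowledge and not by the run. By counts of reads at 1 locus, Mir103-1, Mir103-2 and Mir107 together held 5.84% of the summed CPM of these 12 genes in replicate 1 and 6.55% in replicate 2.

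By mean level, 3 of the 12 genes stood above Mir107. Mir322, of an X-linked cluster linked to growth, led with 9485 and 7612 CPM, and Mir195a had 1473 and 1524 CPM, both above Mir107 in each library. The ranges of Mir15a (2685 and 910 CPM), Mir16-1 (631 and 1189 CPM) and Mir497 (1256 and 548 CPM) overlapped that of Mir107. Their order to it thus does not hold beyond the spread. Within each library Mir15a stood above Mir107, in replicate 2 by little (910 against 902 CPM). The order of Mir16-1 and Mir497 to Mir107 changed between the libraries. Mir497 overlaps Mir497b on the other strand. Below Mir107 in both libraries lay Mir15b (599 and 863 CPM), Mir16-2 (215 and 378 CPM) and Mir503 (123 and 176 CPM). Mir103-2 and Mir103-1 followed, and Mir195b had 1 and 0 reads. Like the Mir103 pair, Mir16-1 and Mir16-2 share a mature product, so their counts leave out its reads with several alignments.

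**Figure D4:**
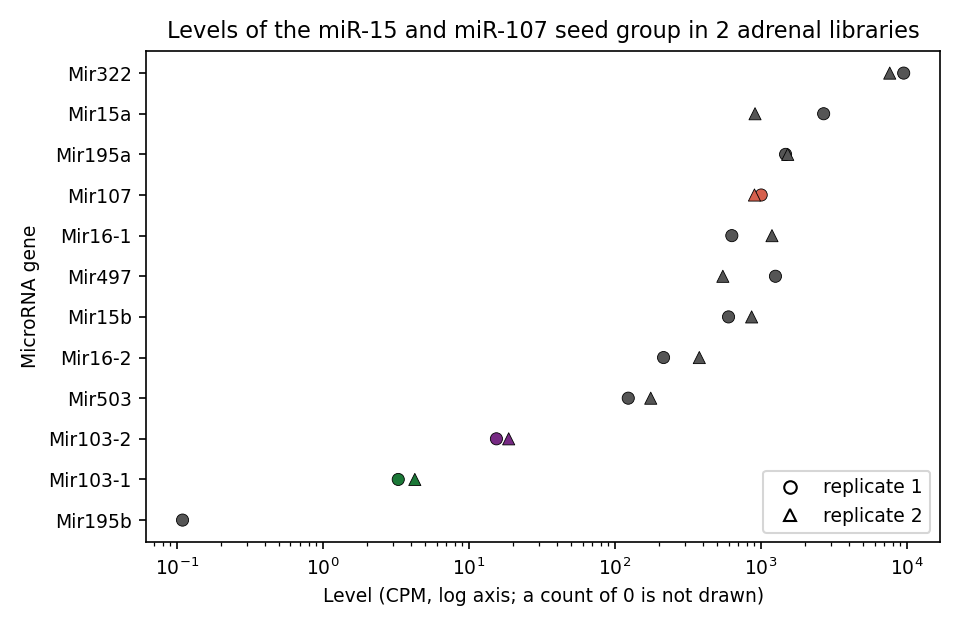
Levels (CPM, log axis) of the 12 genes of the seed group of miR-15 and miR-107, with circles for replicate 1 and triangles for replicate 2. Mir107 lies at 1003 and 902 CPM among the upper genes, and Mir103-2 and Mir103-1 lie near the foot of the order at 15.4 and 18.7 CPM and 3.28 and 4.26 CPM.

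The libraries were compared gene by gene with an exact two-sided binomial test against library sizes scaled by TMM (trimmed mean of M-values, which corrects for a few dominant genes), with Benjamini-Hochberg adjustment over 426 genes of at least 20 counts. Mir107 was 1.19-fold higher in replicate 1, a log2 ratio of replicate 2 over replicate 1 of -0.25 (95% counting interval -0.30 to -0.20, adjusted p = 4.88e-25 in the exact test). Scaled by total counts the log2 ratio of Mir107 was -0.15. Mir103-2 had a log2 ratio of 0.18 (-0.18 to 0.54, adjusted p = 0.424, exact test), and Mir103-1 one of 0.28 (-0.52 to 1.07, adjusted p = 0.630, exact test). The intervals of both Mir103 genes include 0, and with 30 and 28 reads that of Mir103-1 also includes a doubling.

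So 1 of 3 members was called, where 56.1% of all tested genes were called and 29.6% were called as higher in replicate 1. Among genes between 500 and 2000 CPM, a range chosen after the values were seen, 87.5% were called, so a call at the depth of Mir107 is usual in these libraries. In size the difference of Mir107 was ordinary among all tested genes, since 44.4% of them had a smaller absolute log2 ratio and their median was 0.30. Among the genes between 500 and 2000 CPM the median absolute log2 ratio was 0.21. The log2 ratio of -0.25 of Mir107 was somewhat larger in size than that. Of the 9 other genes of the seed group, 8 were tested and all 8 were called, 4 higher in each library, with a median log2 ratio of 0.18 where the median of all tested genes was -0.02. They ran from -1.66 (Mir15a) to 0.82 (Mir16-1), beside -0.25 to 0.28 for the Pank-hosted genes.

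**Figure D5:**
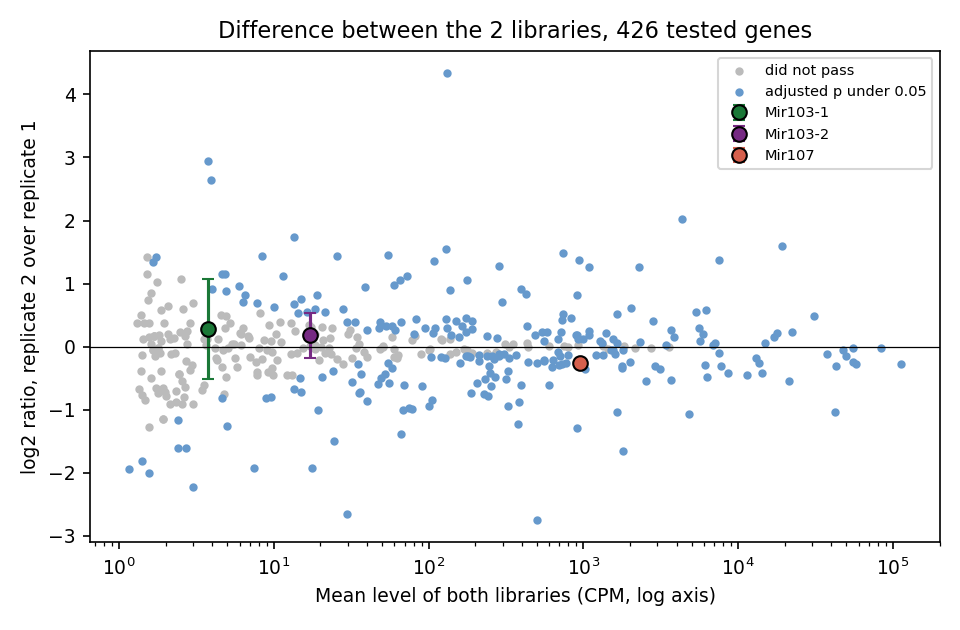
Log2 ratio of replicate 2 over replicate 1 (y axis) by mean level (CPM, log axis) for 426 tested genes, with blue points at an adjusted p under 0.05 and grey points that did not pass. Bars on the 3 members are 95% counting intervals, which include 0 for Mir103-1 and Mir103-2 and run from -0.30 to -0.20 for Mir107.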

How the data were processed

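The authors deposited raw read counts for 2202 microRNA genes per library, made on mm10 with GENCODE M21 according to the accompanying deposited text. An adapter trimming document is named per the labels' protocols. Which aligner and counter were run is not given in the sources used here. The columns have no header. The stranded column with the larger total was read as the strand of the gene. The 4 rows that name no gene were left out of library sizes.

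CPM, log2 ratios (0.5 counts added) and exact binomial tests were computed with Python 3.11.15 and scipy 1.17.1, on TMM sizes from edgeR 4.0.16 (genes of at least 20 counts). The binomial test knows counting error only. It was run on simulated counts that hold counting error and set folds alone, so that run cannot show how it behaves under other variation between libraries. Sequences came from RefSeq (GRCm38.p6), where 1032 of 2201 symbols matched, and from GENCODE transcripts. Named genes are the members, the 3 genes nearest to each in level, the seed group, 2 metabolic-host genes and the 3 nearest pairs. The check on tissue also names microRNAs from a separate list of cell type markers. The members and lists were chosen with earlier results of these data known. Fisher's exact tests of the shares are given unadjusted, since an adjustment would run over the members alone. Alternatives used total counts, DESeq2 1.42.0 size factors, either-strand counts, no count filter, a pseudocount of 1, other denominators and each library left out. With 1 group, no contrast between conditions exists.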

Additional observations from a re-analysis of the deposited data

How the results depend on the processing

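The calls and directions of all 3 members were the same under total counts, DESeq2 size factors, either-strand counts and a pseudocount of 1. Scaled by total counts, the log2 ratio of the family sum moved from -0.24 to -0.14. The number of called genes ran from 218 of 400 tested on either strand to 243 of 426 by total counts. With no filter beyond 1 count it was 233 of 818, so the share of tested genes called depends on that filter. By total counts 150 of 243 were higher in replicate 2, against 113 of 239 by TMM. With reads of several alignments in the denominator, the levels fell to 540 CPM for Mir107, 9.67 for Mir103-2, 2.13 for Mir103-1 and 552 for their sum, and with all reads of the table to 449, 8.02, 1.77 and 459 CPM. Counted on either strand, Mir107 stood at 1049 CPM and the sum at 1071 CPM. Mir107 kept the same 9165 and 5927 reads there, and the rise comes from lower totals of both libraries. Leaving out a library gave 902 to 1003 CPM for Mir107, and its share of the family ran from 97.5% to 98.2%. No alternative adds back the reads set apart for several alignments, so none tests how many belong to the Mir103 loci. No paired analysis was possible because the series has 1 group. Depth limits Mir103-1, with 30 and 28 reads.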
